A study of Mus musculus with 11 samples.

Results

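The mouse mitochondrial genome carries 37 genes, and all 37 were measured here in hippocampal tissue by bulk RNA sequencing. They were taken as the rows of the deposited table whose chromosome is MT or whose name begins with mt-, which gave 37 of 36826 genes: 13 protein genes, 2 rRNA genes and 22 tRNA genes. The 11 libraries fall into 3 groups at 14 months of age: 4 come from wild-type mice of the strain C57BL/6J (WT), 3 from sham-exposed APP/PS1 mice (sham) and 4 from APP/PS1 mice kept in a rotating magnetic field of 0.4 T (RMF). Both APP/PS1 groups carry amyloid transgenes, and what separates them from each other is the field alone, as far as the labels say. Sham or field exposure began at 2 months of age and lasted 12 months on 5 days per week, for 3 h per day up to 11 months of age and for 6 h per day after that. The promoter and line of the transgenes, littermate status and the handling of WT mice are not stated in these sources. The protocol text speaks of pooled RNA and does not tie a library to an animal, so the p-values speak of the spread among libraries, part of which may be technical.

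Mitochondrial DNA is transcribed inside the organelle by a dedicated RNA polymerase, Polrmt, with the factors Tfam and Tfb2m. Both strands of the circle are read into long precursor RNAs, and tRNAs between the other genes are cut out to release mRNAs and rRNAs. The protein genes supply core subunits of complexes I, III and IV and of the ATP synthase, which join subunits made from nuclear genes, and in neurons these complexes provide most of the ATP that synapses use. Most genes lie on the heavy strand's transcript, whereas mt-Nd6 and 8 tRNA genes are read from the opposite strand and are called light-strand genes below.

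Library totals lay between 68124548 and 70786786 counts, and all 37 genes passed the filter on low values, set at 1 FPKM or more in 3 or more libraries, together with 14428 genes of the table in all. Sham 4 stood apart from the other 10 libraries in many of the results that follow, and values without it are given beside those that rest on it. WT 3 stood apart in tissue markers, with a summed level of 5 neocortex markers of 707 CPM against 137 CPM at the lowest WT library. Its 4 dentate granule markers summed to 163 CPM, against 326 to 431 CPM in the other WT libraries. Its oligodendrocyte markers had the lowest sum of all libraries. The labels call the cells neurons, but the summed level of 5 oligodendrocyte markers was 2367 to 9100 CPM and that of 5 astrocyte markers 2600 to 3672 CPM, beside 5205 to 6854 CPM for 7 neuron markers, so the libraries are described as tissue. In bulk tissue, fewer cells of a type and less RNA per cell cannot be told apart.

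Mitochondrially encoded RNA took about the same share of counts in 10 of the 11 libraries and a larger share in sham 4. The share was 5.92%, 6.76%, 7.39% and 5.76% in WT 1 to 4. In the sham libraries 1, 3 and 4 it was 5.93%, 6.05% and 9.53%. The RMF libraries held 6.55%, 6.17%, 5.93% and 5.92%. Sham 4 was the highest of all libraries, the other sham libraries lay inside the WT range, and the RMF range lay inside the WT range too. The top of the WT range was set by WT 3. The group means were 6.46% ± 0.765 (SD, n = 4) in WT, 7.17% ± 2.05 (SD, n = 3) in sham and 6.14% ± 0.294 (SD, n = 4) in RMF, and without sham 4 the sham mean was 5.99% ± 0.086 (SD, n = 2). These shares are sums over the genes and are given as a description with no test.

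**Figure D1:**
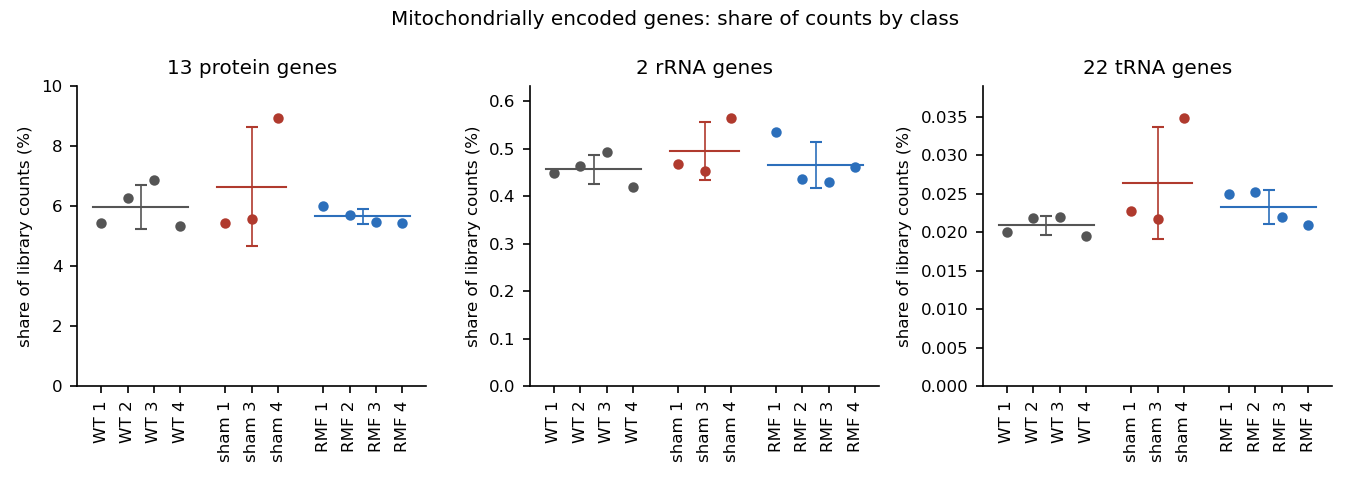
Share of each library's counts (%, vertical axes from 0) on the 13 protein genes, 2 rRNA genes and 22 tRNA genes, with 1 point per library, a line at the group mean and a bar of 1 SD. Sham 4 is the highest library in each class, with 8.93% of its counts on protein genes and 0.0349% on tRNA genes.

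By class, the protein genes took nearly all of these counts. They held 5.32% to 6.88% of counts in WT, 5.44% and 5.57% in sham 1 and sham 3, 8.93% in sham 4 and 5.44% to 5.99% in RMF. The 2 rRNA genes held 0.42% to 0.494% in WT, 0.454% to 0.565% in sham and 0.429% to 0.536% in RMF, although rRNA is the most abundant mitochondrial RNA in cells. The libraries were selected with oligo(dT) beads, and the low share of rRNA is that of RNA so selected. The 22 tRNA genes held 0.0196% to 0.022% in WT, 0.0217% to 0.0349% in sham and 0.0209% to 0.0253% in RMF. tRNA genes are 59 to 75 bases long and the reads are 150 bases long, so a read counted on a tRNA gene can reach into its neighbours, and these counts need not be of mature tRNA.

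Levels per length were compared in the WT libraries by FPKM. mt-Co1, the catalytic core of cytochrome oxidase, was highest at 13740 ± 2224 FPKM (SD, n = 4), and its range did not overlap that of the next gene. mt-Atp8 followed with 7796 ± 1030 FPKM, and then mt-Cytb, the complex III subunit, with 5880 ± 616 FPKM and mt-Atp6 with 5710 ± 688 FPKM. Next were mt-Nd1 at 4547 ± 481 FPKM, mt-Co2 at 4176 ± 285 FPKM, mt-Nd4 at 3914 ± 373 FPKM, mt-Co3 at 3730 ± 249 FPKM, mt-Nd2 at 3488 ± 364 FPKM and mt-Nd4l at 3032 ± 279 FPKM. From mt-Atp8 down to mt-Nd4l, neighbours in this order overlapped in range. Within single libraries, each of these genes still exceeded the next in 3 or 4 of the 4 WT libraries. The rRNA gene mt-Rnr1 had 2072 ± 226 FPKM and overlapped mt-Nd5 at 2002 ± 273 FPKM. Below these, with ranges that did not overlap their neighbours, lay mt-Rnr2 at 1544 ± 53.8 FPKM, mt-Nd6, the only light-strand protein gene, at 1138 ± 217 FPKM, and mt-Nd3 at 253 ± 15.4 FPKM. Genes read on 1 heavy-strand precursor thus differed in FPKM, from mt-Co1 down to mt-Nd3. Genes that share bases, such as mt-Atp8 with mt-Atp6 and mt-Nd4l with mt-Nd4, cannot both be cut whole from it. Their FPKM values therefore need not be levels of separate RNAs. Several of these genes, mt-Co1 and mt-Nd3 among them, have near-identical nuclear copies, described below, and their values are uncertain to that extent.

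Some neighbours share bases, and the counting of reads that fall in a shared stretch, or on either strand, is not stated in these sources. mt-Atp8 and mt-Atp6, both subunits of the ATP synthase membrane part, overlap by 43 bases (MT:7927-7969, plus strand). Their shared stretch is shown in capitals in the last 60 bases of mt-Atp8 and the first 60 of mt-Atp6. mt-Nd5 and mt-Nd6 run towards each other and share 14 bases (MT:13552-13565), shown in capitals in the last 40 bases of each gene as its own strand reads. All 4 sequences are from GENCODE vM21 (GRCm38), and the coordinates of the 37 genes in the deposited table equal those of that annotation.
mt-Atp8: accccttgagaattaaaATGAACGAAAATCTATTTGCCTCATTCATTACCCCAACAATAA
mt-Atp6: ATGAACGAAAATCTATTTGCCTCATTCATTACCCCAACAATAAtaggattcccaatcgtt
mt-Nd5: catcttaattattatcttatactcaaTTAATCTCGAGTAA
mt-Nd6: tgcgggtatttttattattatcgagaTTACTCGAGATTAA

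The first question of the design is how APP/PS1 hippocampus under sham exposure differs from wild type. None of the 37 mitochondrial genes differed between sham and WT by edgeR's quasi-likelihood test (Benjamini-Hochberg adjustment across the genes tested, threshold 0.05), while 0.929% of all genes tested passed it. At an unadjusted p below 0.05, 12 of 37 genes lay above WT and 0 below, against 13.2% of all genes tested in either direction, and DESeq2 gave 14 such genes and 0 past its adjusted threshold. These 12 were mt-Nd6 and 11 tRNA genes. In all, 33 of 37 genes had a sham mean above WT, and the median log2 difference was 0.38 against -0.0019 over all genes tested. By class the median log2 difference was 0.29 for protein genes, 0.16 for rRNA genes and 0.56 for tRNA genes. Without sham 4, 22 of 37 genes lay above WT, the median was 0.056 (-0.083 for protein genes, 0.019 for rRNA genes and 0.19 for tRNA genes), 11 genes changed sign and 0 of 37 had an unadjusted p below 0.05, against 9.43% of all genes tested.

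The complex I genes show how far sham 4 set the sham means. mt-Nd6 had 540, 661, 744 and 498 CPM in WT 1 to 4. It had 611, 661 and 1557 CPM in sham 1, 3 and 4 and 782, 706, 662 and 631 CPM in RMF 1 to 4. All libraries but sham 4 lay between 498 and 782 CPM. Its log2 difference of sham from WT was 0.63 ± 0.28 (SE; edgeR adjusted p = 0.368), and sham 1 and sham 3 lay inside the WT range. Without sham 4 it was 0.056 ± 0.16 (SE; edgeR adjusted p = 0.917).

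mt-Nd5, which ends against mt-Nd6 on the other strand, had 3433, 4044, 4336 and 3294 CPM in WT, 3660, 3924 and 8415 CPM in sham and 4057, 4048, 4003 and 3947 CPM in RMF. Sham 4 was again alone, and RMF libraries lay inside the WT range, whose top was set by WT 3. The log2 difference of sham from WT was 0.50 ± 0.24 with sham 4 and 0.0039 ± 0.11 without it (SE; edgeR adjusted p of 0.401 and 0.994). The other complex I genes gave log2 differences of 0.37 ± 0.21 for mt-Nd2, 0.38 ± 0.20 for mt-Nd4l, 0.34 ± 0.19 for mt-Nd4 and 0.14 ± 0.17 for mt-Nd1 (SE; edgeR adjusted p between 0.43 and 0.734), and without sham 4 these 4 lay between -0.15 and -0.010.

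mt-Nd3, also of complex I, had a sham mean below WT. Its level was 93.5, 98.98, 85.8 and 86.2 CPM in WT, 88.1, 84.1 and 77.0 CPM in sham and 113.9, 104.2, 100.6 and 90.6 CPM in RMF. Sham 4 was the lowest of the 11 libraries for this gene, and WT and sham ranges overlapped. Its log2 difference of sham from WT was -0.13 ± 0.089 with sham 4 and -0.083 ± 0.097 without it (SE; edgeR adjusted p of 0.514 and 0.769).

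The ATP synthase genes were likewise highest in sham 4. mt-Atp8 had 1516, 1881, 1774 and 1410 CPM in WT, 1441, 1753 and 3787 CPM in sham and 1718, 1418, 1325 and 1284 CPM in RMF. Only sham 4 left the WT range upwards, and the log2 difference of sham from WT was 0.50 ± 0.27 with it and -0.045 ± 0.15 without it (SE; edgeR adjusted p of 0.433 and 0.936). mt-Atp6 gave 0.29 ± 0.21 with sham 4 and -0.10 ± 0.13 without it (SE; edgeR adjusted p of 0.545 and 0.786).

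The cytochrome oxidase and complex III genes had smaller differences. mt-Co1 had 19320, 22930, 26320 and 19240 CPM in WT, 20070, 19450 and 31980 CPM in sham and 21330, 20580, 19980 and 19720 CPM in RMF. Its log2 difference of sham from WT was 0.12 ± 0.18 (SE; edgeR adjusted p = 0.782). mt-Cytb gave 0.15 ± 0.15, mt-Co2 0.013 ± 0.12 and mt-Co3 -0.054 ± 0.086 (SE; edgeR adjusted p between 0.674 and 0.968). The rRNA genes gave 0.11 ± 0.13 for mt-Rnr1 and 0.21 ± 0.11 for mt-Rnr2 (SE; edgeR adjusted p of 0.725 and 0.416). Without sham 4 the cytochrome oxidase and complex III genes lay between -0.15 and -0.099, mt-Rnr1 at -0.064 and mt-Rnr2 at 0.10.

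**Figure D2:**
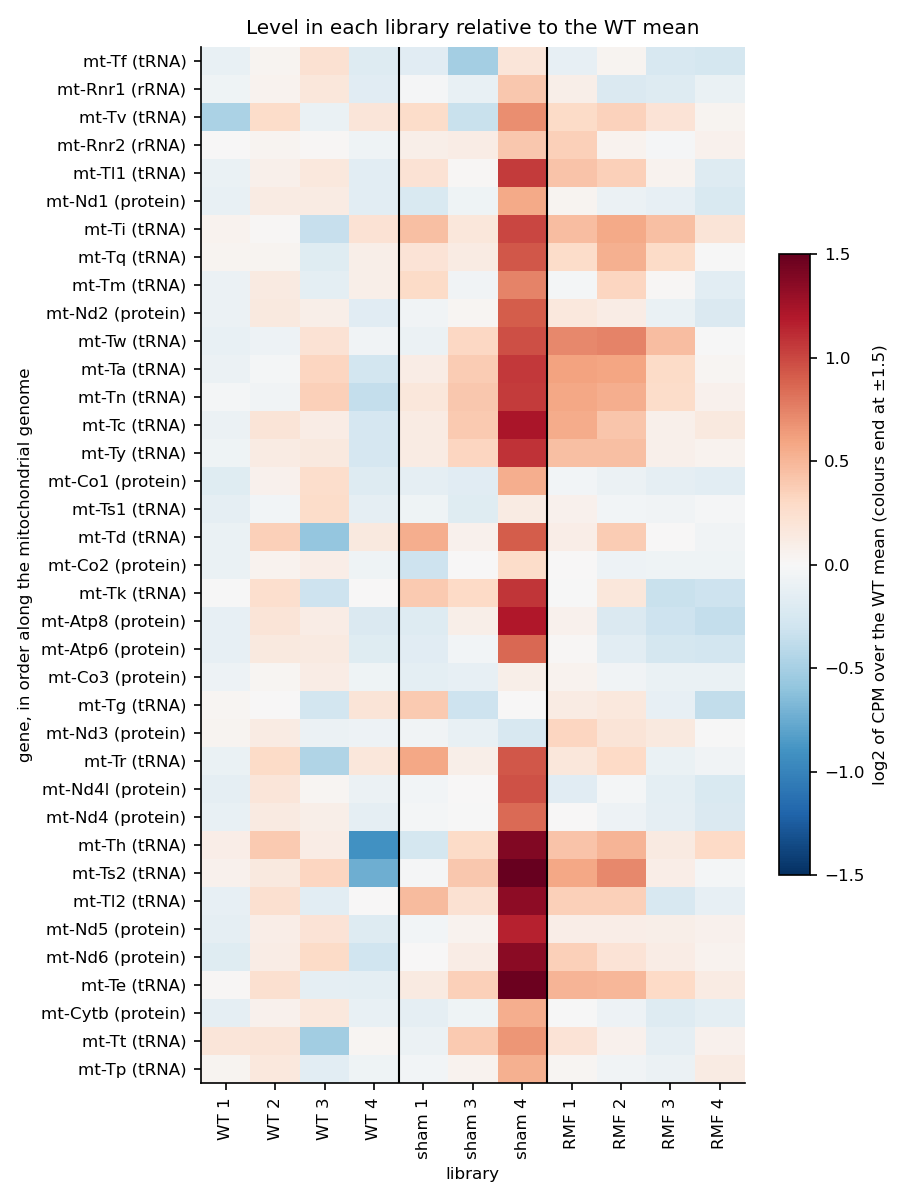
Level of each of the 37 genes in each library as the log2 of its CPM over the WT mean, with genes in order along the mitochondrial genome and vertical lines between groups. The column of sham 4 is the deepest red in most rows, and mt-Nd3, mt-Tg, mt-Ts1, mt-Co3 and mt-Tf are the 5 genes whose highest library is another one.

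Sham 4 held the highest level of the 11 libraries for 32 of the 37 genes, against 17.6% of all genes tested. The exceptions were mt-Tf, mt-Ts1 and mt-Co3, highest in WT 3, mt-Nd3, highest in RMF 1, and mt-Tg, highest in sham 1. The excess was uneven within the genome. Over the mean of sham 1 and sham 3, sham 4 held 2.45-fold for mt-Nd6, 2.37-fold for mt-Atp8, 2.33-fold for mt-Te and 2.22-fold for mt-Nd5. By contrast it held 1.34-fold for mt-Co2, 1.23-fold for mt-Rnr2, 1.17-fold for mt-Co3 and 0.895-fold for mt-Nd3. The median was 1.83-fold over the protein genes and 1.68-fold over the tRNA genes, and the rRNA genes lay at 1.23-fold and 1.38-fold. In all, 25 of 37 genes exceeded 1.5-fold, against 6.18% of all genes tested.

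The tRNA genes had the largest log2 differences of sham from WT. The lowest unadjusted p among all 37 was that of mt-Te, the tRNA for glutamate, with a log2 difference of 0.78 ± 0.26 with sham 4 and 0.25 ± 0.14 without it (SE; edgeR adjusted p of 0.262 and 0.599). It had 28.0, 32.6, 25.2 and 25.0 CPM in WT, 30.4, 35.5 and 76.9 CPM in sham and 39.5, 39.0, 34.2 and 30.0 CPM in RMF. Sham 4 was far above all others, while sham 1 lay inside the WT range and sham 3 just above it. The other 10 tRNA genes with an unadjusted p below 0.05 were mt-Tl2, mt-Tc, mt-Tk, mt-Tn, mt-Ti, mt-Tr, mt-Ta, mt-Ty, mt-Td and mt-Tq, with log2 differences between 0.47 and 0.76 with sham 4 and between 0.16 and 0.35 without it.

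Of the remaining tRNA genes, mt-Tl1, mt-Tm, mt-Tw, mt-Tt, mt-Tv, mt-Tp and mt-Tg had log2 differences between 0.054 and 0.50, mt-Ts1 and mt-Tf -0.037 and -0.14, and 0 of these 9 had an unadjusted p below 0.05 by edgeR. mt-Ts2 and mt-Th had the fewest counts of all, with means of 23.7 and 41.6 counts per library, and their log2 differences of 0.83 ± 0.42 and 0.63 ± 0.40 (SE; edgeR adjusted p of 0.413 and 0.495) carry the widest errors, and without sham 4 they were 0.21 ± 0.38 and 0.036 ± 0.36. mt-Ts1, the tRNA gene with the most counts, overlaps the end of mt-Co1 on the opposite strand. It had 50.5, 53.8, 67.2 and 50.6 CPM in WT, 53.2, 49.0 and 60.2 CPM in sham and 58.3, 53.7, 53.5 and 54.8 CPM in RMF, and its groups overlapped.

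In 3 of 37 genes every sham library lay above every WT library, where 12.7% of all genes tested did not overlap in either direction. mt-Rnr2, the large-subunit rRNA, had 2529, 2602, 2561 and 2415 CPM in WT against 2692, 2735 and 3345 CPM in sham. mt-Tk had 4.08, 4.88, 3.32 and 4.12 CPM in WT against 5.37, 5.03 and 8.62 CPM in sham. mt-Tq had 7.93, 7.90, 6.76 and 8.19 CPM against 8.84, 8.41 and 14.7 CPM. In each of the 3, the gap between the groups was small beside the distance from sham 1 and sham 3 to sham 4.

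The second question is whether the field changed these levels within APP/PS1 mice. None of the 37 genes differed between RMF and sham by edgeR, and 0% of all genes tested did. Unadjusted p-values below 0.05 were found for 6 of 37 genes, against 6.89% of all genes tested, and DESeq2 gave 8 of 37 and 0 past its adjusted threshold. mt-Nd3 lay higher in RMF, and mt-Tk, mt-Atp8, mt-Nd4l, mt-Nd4 and mt-Tl2 lay lower. The median log2 difference over the 37 genes was -0.28, with 5 genes above sham, and -0.0021 over all genes tested. Without sham 4, 23 genes lay above sham, the median was 0.044 and 18 genes changed sign. The sham libraries are shared with the comparison with WT, so a high sham library raises one difference and lowers the other.

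mt-Nd3 was the 1 gene that kept an unadjusted p below 0.05 without sham 4, where 4.08% of all genes tested had one. Its log2 difference of RMF from sham was 0.30 ± 0.089 (SE; edgeR adjusted p = 0.719) and 0.25 ± 0.097 without sham 4 (SE; edgeR adjusted p = 0.986). All 4 RMF libraries lay above all 3 sham libraries, and RMF 4 at 90.6 CPM was close to sham 1 at 88.1 CPM. mt-Tk lay below all sham libraries in all 4 RMF libraries, with 4.10, 4.62, 3.26 and 3.32 CPM, and its log2 difference was -0.73 ± 0.22 (SE; edgeR adjusted p = 0.719). These 2 are the genes that did not overlap between RMF and sham, against 10.6% of all genes tested. For mt-Atp8 the log2 difference was -0.70 ± 0.27 with sham 4 and -0.16 ± 0.15 without it (SE; edgeR adjusted p of 0.719 and 0.986).

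**Figure D3:**
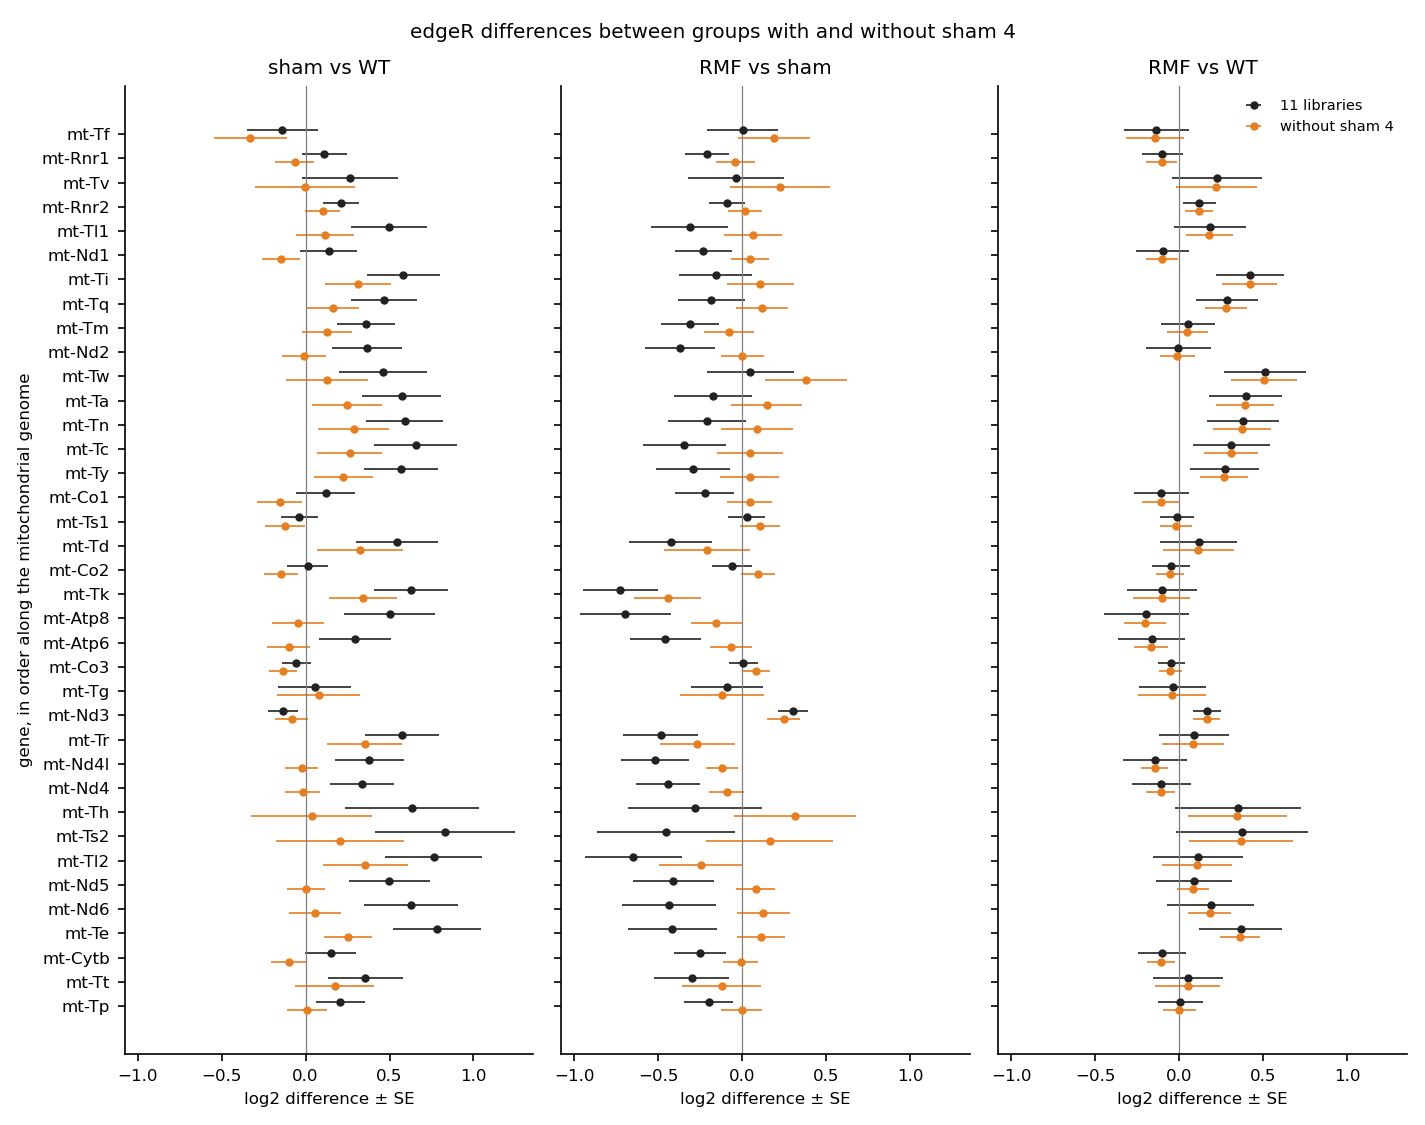
Log2 differences between groups (points, with bars of 1 SE from edgeR) for the 37 genes in genome order, from all 11 libraries in black and without sham 4 in orange. With sham 4 left out, most genes move towards 0 in the 2 comparisons that use the sham group. The values of RMF against WT stay in place. In sham against WT, 19 of 22 tRNA genes and 2 of 13 protein genes then lie above 0.

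Between RMF and WT, edgeR called 0 of 37 genes, against 1.19% of all genes tested, and 0 of 37 had an unadjusted p below 0.05, against 8.4%. DESeq2 gave 0 on both counts. By class, of 13 protein genes 3 lay above WT (median log2 difference -0.096), of 2 rRNA genes 1, and of 22 tRNA genes 18 (median 0.20). The 3 protein genes were mt-Nd3 at 0.17 ± 0.082, mt-Nd6 at 0.19 ± 0.26 and mt-Nd5 at 0.088 ± 0.22 (log2, SE; edgeR adjusted p between 0.639 and 0.951). Among the tRNA genes the differences ranged from -0.14 for mt-Tf to 0.51 ± 0.24 for mt-Tw (SE; edgeR adjusted p = 0.619). No gene's RMF range lay clear of its WT range, where 6.75% of all genes tested did. With sham 4 out of the fit, which narrows the shared estimate of spread, mt-Te, mt-Ti, mt-Tw and mt-Ta had unadjusted p-values below 0.05, against 9.7% of all genes tested, with edgeR adjusted p of at least 0.312. With WT 3 left out too, 6 of 37 genes had an unadjusted p below 0.05 by edgeR, all above WT, against 13.25% of all genes tested. None was called. Among those libraries the RMF range of 3 genes, all tRNA genes, lay clear of WT, against 12.79% of all genes tested.

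The balance of the classes was then taken within each library, which sets aside how much mitochondrial RNA the library held. Per 100 counts on the protein genes, the tRNA genes had 0.368, 0.349, 0.32 and 0.368 counts in WT, 0.42, 0.39 and 0.39 in sham, and 0.417, 0.443, 0.401 and 0.384 in RMF. All 7 APP/PS1 libraries lay above all 4 WT libraries, and sham 4 lay within the other APP/PS1 libraries. mt-Nd6 had 1.01, 1.05, 1.11 and 0.939 counts per 100 on the 12 heavy-strand protein genes in WT, 1.13, 1.18 and 1.65 in sham, and 1.31, 1.25, 1.22 and 1.19 in RMF. Here too every APP/PS1 library exceeded every WT library, by the least in sham 1. The rRNA genes had 7.18 to 8.27 counts per 100 in WT, 8.61, 8.15 and 6.33 in sham and 7.66 to 8.96 in RMF, and their groups overlapped, with sham 4 the lowest library. These ratios over several genes are descriptions with no test. Because the use of strand in counting is not stated, counts on mt-Nd6 can include reads from the other strand.

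Gene by gene, 7 of the 37 were higher relative to the protein genes in all 7 APP/PS1 libraries than in all 4 WT libraries and 0 were lower. Of all genes tested, 1.2% did not overlap in either direction on this scale. They were mt-Ta, mt-Tn, mt-Tc and mt-Ty, which lie side by side, and mt-Nd5, mt-Nd6 and mt-Te, which also adjoin one another. Of these 7, 6 belong to the 9 light-strand genes and 1, mt-Nd5, to the 28 heavy-strand genes. The use of strand in counting is not stated, so counts on the 6 need not come from light-strand RNA. The tRNA genes among them are shorter than a read, so adjoining genes can share reads and are not separate observations. This pooling of both APP/PS1 groups was made after the values had been seen, as was the scale for single genes. The summed level of 5 microglia markers also separated these libraries, with 151 to 186 CPM in WT and 210 to 260 CPM in the 7 APP/PS1 libraries, and its part in the pattern was not tested. By pairs of groups, 12 genes of 37 lay clear of WT in sham (4.35% of all genes tested), 8 in RMF (4.66%), all upwards, and 5 differed between RMF and sham (6.85%), of which 2 were higher and 3 lower in RMF. These shares over all genes, and the 1.2% above, are no like background. Dividing by the protein genes takes a library's mitochondrial level out of the 37 genes and puts it into nuclear ones. In CPM, 3 of 37 genes lay clear of WT in sham (12.7% of all genes tested) and 0 of 37 in RMF (6.75%).

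The 5 tRNA genes of this set are printed with the anticodon in capitals, as the strand of the tRNA reads, because all 5 are read from the light strand, 4 of them side by side. The anticodon was located by its letters in a loop closed by 5 paired bases. They lie at MT:5018-5086 (mt-Ta, alanine), MT:5089-5159 (mt-Tn, asparagine), MT:5192-5257 (mt-Tc, cysteine), MT:5260-5326 (mt-Ty, tyrosine) and MT:14071-14139 (mt-Te, glutamate), all on the minus strand of GRCm38.
mt-Ta: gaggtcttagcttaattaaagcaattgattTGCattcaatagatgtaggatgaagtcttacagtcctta
mt-Tn: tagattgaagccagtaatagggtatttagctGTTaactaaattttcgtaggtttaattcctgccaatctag
mt-Tc: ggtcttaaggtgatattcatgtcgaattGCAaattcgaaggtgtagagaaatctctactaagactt
mt-Ty: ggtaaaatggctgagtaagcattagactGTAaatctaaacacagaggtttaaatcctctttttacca
mt-Te: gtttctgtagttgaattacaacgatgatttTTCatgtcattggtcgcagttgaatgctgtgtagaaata

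Per 1000 counts on the protein genes, mt-Ty had 0.134, 0.131, 0.125 and 0.12 counts in WT, 0.151, 0.168 and 0.168 in sham, and 0.173, 0.182, 0.147 and 0.147 in RMF. mt-Tc had 0.0778, 0.0804, 0.072 and 0.0704 in WT, 0.0895, 0.104 and 0.11 in sham, and 0.109, 0.105, 0.0867 and 0.0926 in RMF. For mt-Ty sham 4 was near sham 3 and RMF 1 and RMF 2 were higher, and for mt-Tc sham 4 was the highest library by a small margin over RMF 1. mt-Te had 0.515, 0.511, 0.373 and 0.467 in WT, 0.555, 0.624 and 0.804 in sham, and 0.654, 0.681, 0.624 and 0.56 in RMF. For mt-Te, as for mt-Nd6 and mt-Nd5, sham 4 remained the highest library on this scale.

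mt-Nd5 had 63.2, 63.5, 64.1 and 61.6 counts per 1000 in WT, 66.8, 69.0 and 87.9 in sham, and 67.2, 70.7, 73.1 and 73.7 in RMF. The WT libraries were close together and the gap to sham 1 was small. mt-Nd5 and mt-Nd6 are themselves among the protein genes of the denominator. In an edgeR fit with the 13 protein genes as the library size, the log2 difference of mt-Te was 0.50 ± 0.20 for sham (SE; adjusted p = 0.804) and 0.43 ± 0.18 for RMF against WT (SE; adjusted p = 0.9998). None of the 7 genes was called on this scale, which itself moves the median log2 difference of all genes tested by -0.13 (sham against WT), 0.20 (RMF against sham) and 0.068 (RMF against WT).

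**Figure D4:**
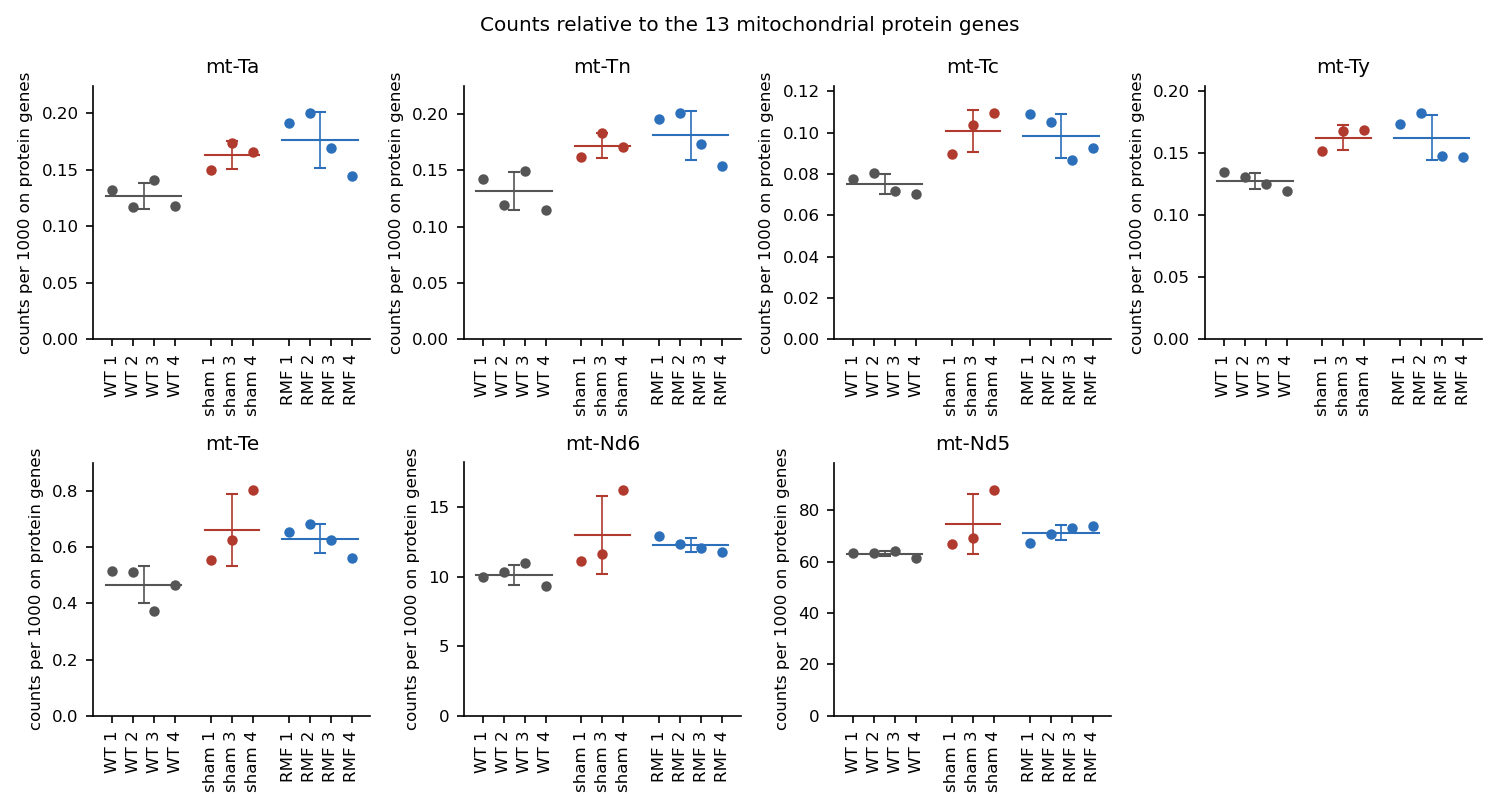
Counts per 1000 counts on the 13 mitochondrial protein genes (vertical axes from 0) for the 7 genes whose APP/PS1 libraries all lie above the WT libraries, with 1 point per library, a line at the group mean and a bar of 1 SD. The gap between WT and the lowest APP/PS1 library is narrow in each panel, and sham 4 is the top library in the panels of mt-Te, mt-Nd6, mt-Nd5 and, by a small margin, mt-Tc.

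Mitochondrial genes also have copies in nuclear DNA, left by past insertions, and reads from the 2 kinds of locus can be identical. Of genes in the table, 15 matched a mitochondrial gene over at least 100 bases with at least 80% identity. Of these, 7 at identities of at least 99% lie together at chromosome 1:24650616-24655278, as the table gives it (no mouse build is stated in these sources). Gm28439 matches bases 1 to 876 of mt-Nd4, and Gm28437, Gm28661, Gm10925 and Gm10222 match mt-Co3, mt-Co2, mt-Atp6 and mt-Nd4l from their first base, all 5 without a mismatch. Gm28438 matches mt-Nd3 and Gm29216 matches bases 1063 to 1545 of mt-Co1, each with 1 mismatch.

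The single differences of these pairs are printed in capitals, with GENCODE vM21 as the source of each sequence and with positions counted from 1 at the first base of the mitochondrial gene. They are T3C between mt-Nd3 and Gm28438 and A1066T between mt-Co1 and Gm29216. As a contrast, the last pair shows a stretch of mt-Co1 (bases 14 to 94, MT:5341-5421) and Gm13340 on chromosome 2, which has 37 mismatches over 1545 bases, 3 of them in this stretch. A read from most of either chromosome 1 copy is identical to one from the mitochondrial gene, which is not so for Gm13340.
mt-Nd3 1-41: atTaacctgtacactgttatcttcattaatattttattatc
Gm28438 1-41: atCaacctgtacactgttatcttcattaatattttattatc
mt-Co1 1063-1103: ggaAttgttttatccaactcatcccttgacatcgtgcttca
Gm29216 10-50: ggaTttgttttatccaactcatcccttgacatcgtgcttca
mt-Co1 14-94: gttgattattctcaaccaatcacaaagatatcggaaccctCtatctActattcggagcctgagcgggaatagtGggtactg
Gm13340 14-94: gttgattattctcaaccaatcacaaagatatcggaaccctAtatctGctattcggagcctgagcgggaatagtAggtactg

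Counts on the 7 near-identical copies followed those of their mitochondrial partners. Gm28437 had 98.2% to 99.7% of the count of mt-Co3 over the 11 libraries, Gm28661 98.4% to 99.3% of mt-Co2 and Gm10222 99.04% to 99.9% of mt-Nd4l. Gm10925 had 106% to 108% of mt-Atp6, and Gm28438 74.6% to 84.6% of mt-Nd3. The 8 copies of lower identity, 83.7% to 97.6%, had at most 883 counts in any library and at most 0.16% of their partner. How reads that match several places were counted is not stated in these sources, so the counts of the 7 pairs cannot be told apart, and values of mt-Nd3, mt-Nd4, mt-Nd4l, mt-Co1, mt-Co2, mt-Co3 and mt-Atp6 are uncertain to that extent. The copies took 1.28% to 1.58% of counts in 10 libraries and 2.16% in sham 4, and with them the mitochondrial share was 7.06% to 8.97% in 10 libraries and 11.7% in sham 4. Leaving all 15 copies out of the edgeR fit left 0 of 37 genes called in each of the 3 comparisons.

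Gm28439 and Gm29216 cover only a part of their partner, and their share of its count set sham 4 apart. Gm28439, identical to the first 876 of 1378 bases of mt-Nd4, had 37.8% to 42.4% of the count of mt-Nd4 in 10 libraries and 56.5% in sham 4. Gm29216, which matches the last 483 of 1545 bases of mt-Co1, had 4.19% to 4.79% of the count of mt-Co1 in 10 libraries and 3.31% in sham 4. As a percent of its partner's count, the copy of the 5′ part was thus higher in sham 4 than in any other library. The percent for the copy of the 3′ part was lower there than in any other library. Whether this reflects where reads fell along the transcripts was not tested, since the table holds 1 count per gene.

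**Figure D5:**
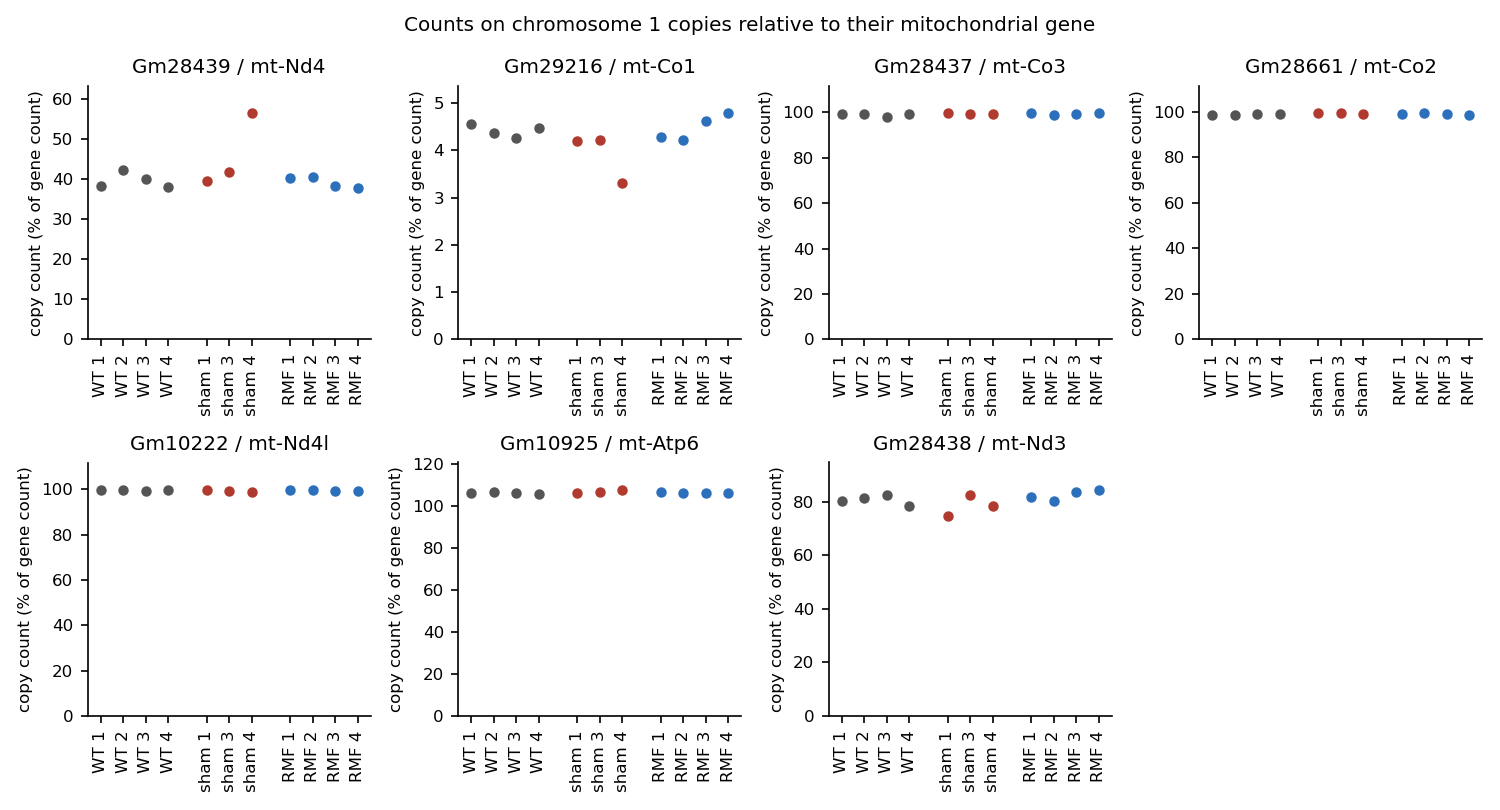
Count on each of the 7 near-identical chromosome 1 copies as a percent of the count on its mitochondrial gene (vertical axes from 0), with 1 point per library. Gm28439 is high in sham 4 (56.5%) and Gm29216 is low there (3.31%), Gm28438 varies between 74.6% and 84.6%, and the other 4 copies hold a nearly even share in all libraries.

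The nuclear genes that make and process mitochondrial RNA did not pass the test in any comparison. Of the list for transcription and replication of mitochondrial DNA 15 of 17 genes were tested, of that for RNA processing, stability and decay 26 of 26, and of that for regulators of biogenesis 9 of 10, with 0 called in each of the 3 comparisons by edgeR. The median log2 differences of these lists lay between -0.13 and 0.11. Polrmt, the mitochondrial RNA polymerase, had 31.9 ± 0.88 CPM in WT (SD, n = 4), 26.1 ± 0.55 in sham (SD, n = 3) and 30.3 ± 4.07 in RMF (SD, n = 4), with a log2 difference of sham from WT of -0.29 ± 0.097 (SE; edgeR adjusted p = 0.26). In sham 4 it had 26.5 CPM, the same level as the sham mean within its SD. Ppargc1a, a coactivator of mitochondrial biogenesis, had 46.4 ± 4.04 CPM in WT (SD, n = 4), 52.7 ± 15.8 CPM in sham (SD, n = 3) and 44.1 ± 2.86 CPM in RMF (SD, n = 4), with 70.9 CPM in sham 4.

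Tfam, which packages mitochondrial DNA and starts transcription, gave log2 differences of sham from WT and of RMF from sham of -0.093 ± 0.095 and 0.20 ± 0.095. Tfb2m, the initiation factor, gave 0.092 ± 0.094 and -0.21 ± 0.094, and the elongation factor Tefm gave -0.13 ± 0.23 and 0.18 ± 0.23. Lrpprc and Slirp, which form a complex that stabilises mitochondrial mRNAs, gave 0.11 ± 0.088 and -0.12 ± 0.16 for sham against WT, and the poly(A) polymerase Mtpap gave 0.057 ± 0.087. For RMF against sham Slirp gave 0.29 ± 0.16, with an edgeR adjusted p of 0.768. All errors are SE, and adjusted p-values by edgeR for these 6 genes were at least 0.578 for sham against WT.

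With all 11 libraries, nuclear subunits that assemble with the mitochondrially encoded ones lay below WT in sham, where 11 of the 13 mitochondrial protein genes lay above it. On a panel of 15 such genes of complex I, III, IV and the ATP synthase, 0 of 15 had a sham mean above WT (median log2 difference -0.22), and 15 of 15 had an RMF mean above sham, with a median of 0.19. None of the 15 was called by edgeR in any comparison. Without sham 4 the medians were -0.095 and 0.099, and only 2 of the 13 mitochondrial protein genes then lay above WT in sham. Their summed level was 2867 to 3254 CPM in WT, 2862 to 3051 CPM in RMF and at most 2819 CPM in sham, with 2439 CPM in sham 4, the lowest library. Sham 4 therefore combined the highest level of most mitochondrially encoded genes with the lowest sum of this panel.

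Summed levels of some marker lists were also highest in sham 4. The 5 astrocyte markers summed to 3672 CPM there, against 2600 to 3061 CPM in WT and 3053 to 3308 CPM in RMF, and the 3 pericyte and smooth muscle markers to 175 CPM, against 101 to 136 CPM in WT and 112 to 136 CPM in RMF. Acta2, smooth muscle actin, rose in sham against WT by a log2 difference of 1.82 ± 0.17 and in RMF against WT by 1.78 ± 0.16 (SE; edgeR adjusted p of 0.000267 and 0.000223). It was the 1 called gene of the 3 pericyte and smooth muscle markers. Of these 3, 2 lay above WT in sham and 1 in RMF, with median log2 differences of 0.32 and -0.043. The microglial genes Csf1r, a growth factor receptor, and Cx3cr1, a chemokine receptor, rose in RMF against WT by 0.61 ± 0.10 and 0.58 ± 0.096 (log2, SE; edgeR adjusted p of 0.0101 and 0.011). Neuron markers summed to 6227 CPM in sham 4, inside the WT range of 5658 to 6854 CPM, and 5 nuclear-retained long RNAs to 8473 CPM, inside the WT range of 7021 to 11110 CPM. The top of both ranges was set by WT 3, and both sums in sham 4 lay above every other library. The neocortex markers summed to 255 CPM in sham 4, likewise above every library but WT 3. Pyramidal markers summed to 379 CPM there, below 533 and 501 CPM in sham 1 and sham 3 and inside the WT range. Endothelium and oligodendrocyte precursor markers were also highest in sham 4, at 134.7 and 77.4 CPM, with WT 3 at 133.0 and RMF 1 at 76.0 CPM next. The part of cell makeup or RNA quality in the mitochondrial levels of sham 4 was not tested.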

How the data were processed

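Hippocampal RNA was sequenced by the authors from libraries made with oligo(dT) beads from 5 µg of total RNA, as paired reads of 150 bp trimmed with Cutadapt 1.9, per the labels' protocols. In the submitters' processing notes the tools are edgeR, HISAT2 2.0.4 and StringTie 1.3.4d and the build is a human one, although the table lists mouse gene identifiers. The authors deposited raw whole-number counts per gene and library, and FPKM values beside them. The counting tool, its use of strand and its handling of reads that match several places are not given in these sources. A further 2 columns of values that no sample's labels match were left unused.

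Genes that reached 1 FPKM in 3 or more libraries were tested with edgeR 4.0.16 in R 4.3.3 (quasi-likelihood test, TMM scaling, 11 libraries and 3 groups in 1 fit, no covariate, Benjamini-Hochberg adjustment over 14428 genes), and DESeq2 1.42.0 was an alternative. Levels are CPM scaled by TMM, FPKM serves for levels per length, and SE values come from the test's F statistic. Copies were sought with BLAST 2.17.0 against GENCODE vM21 transcripts. Each library was counted as 1 replicate. No pair within a group had equal counts on the mitochondrial genes within sampling noise, which does not show that the libraries come from separate animals. Counts of 41.6 or fewer per library, as on mt-Th and mt-Ts2, give the least precise values.

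The 37 members, the gene lists and the tests were chosen with earlier results of these data known, so a pattern is no independent support for them. Named genes were all protein and rRNA members, tRNA members that passed the filter, 8 factors always named, and members of the other lists that passed the test. Alternatives covered scaling, filters, each library left out, the replicate number as a block, and the copies.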

Additional observations from a re-analysis of the deposited data

Results flagged for a closer look

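Values of single libraries were compared within the groups of 4 libraries, in 98 sets of values, and 3 had a highest or lowest library farther from the rest than Dixon's 95% limit for 4 values. Chance gives about 1 such set in 20. mt-Tw stood at 2.86 CPM in WT 3, against 2.29 to 2.39 CPM in the other WT libraries. mt-Co2 stood at 2980 CPM in RMF 1, against 2800 to 2830 CPM in the other RMF libraries. Gm28437 had 98.2% of the count of mt-Co3 in WT 3, against 99.2% to 99.3% in the other WT libraries. The sham group of 3 libraries was too small for this comparison.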

How the results depend on the processing

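In all 24 alternative fits, DESeq2 included, 0 of 37 mitochondrial genes were called in any comparison. Of 2664 alternative log2 differences of single genes, 2498 stayed within 1 SE of the value reported and 166 did not. Leaving out sham 4 changed the sign of 11 genes (sham against WT) and 18 genes (RMF against sham), and the scaling to the 13 protein genes changed 6 and 14. The differences between groups in the shares and ratios of the classes moved by less than 1 SD under every alternative run, where the SD of the sham group includes sham 4. That SD is wide because of sham 4, so the limit says little about leaving it out. Without sham 4 the sham mean of the mitochondrial share went from 7.17% to 5.99%, from above the WT mean of 6.46% to below it. Counts over all genes depended on the processing. For sham against WT, 134 genes were called, against 304 with no filter, 392 with filterByExpr, 363 with an FPKM minimum of 0.1, 76 with only the 2 groups in the fit, 85 relative to the mitochondrial protein genes (added after seeing the data), 345 with DESeq2, and 89 to 153 with 1 library left out, the lowest without sham 3. For RMF against sham it was 0 (994 at an unadjusted p below 0.05 by edgeR), against 16 with DESeq2 and 0 to 1 with 1 library left out, where the 1 was without sham 1. For RMF against WT it was 172, against 354 with no filter, 419 with filterByExpr, 378 with an FPKM minimum of 0.1, 260 without sham 4 and WT 3, and 315 with DESeq2. With the replicate number as a block, with or without scaling from nuclear genes, 0 genes were called between sham and WT, 0 between RMF and sham and 80 between RMF and WT. Each of these fits held only the 2 groups compared and the replicate numbers present in both. The sham comparisons thus left out WT 2 or RMF 2, and their counts do not show the block alone. Of 10 pairs of libraries with the same number 1 had a correlation of deviations over 0.1, in a range of -0.364 to 0.309. With 3 or 4 libraries per group, these correlations cannot settle whether the numbers pair the samples, and the labels do not state it. For these counts the cause was not tested.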
